A study of Mus musculus with 8 samples.

Results

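The 9 genes described here encode the enzymes that move single carbon units on folate through serine, formate and formyltetrahydrofolate, with a mitochondrial set and a cytosolic set that run in parallel. They were taken by name from the 55471 genes of the deposited count tables. The mitochondrial enzymes were Mthfd2, Mthfd2l, Mthfd1l, Shmt2 and Aldh1l2 (5 genes), and the cytosolic ones were Mthfd1, Shmt1, Aldh1l1 and Mthfs (4 genes). RNA was measured in hearts of 14-week-old male mice that carried the Taz G197V allele on their only X chromosome (TAZG197V) and in hearts of wild-type (WT) males, with 4 libraries for each genotype. Taz encodes tafazzin, the acyltransferase that remodels cardiolipin in the inner mitochondrial membrane, and the G197V allele replaces a glycine by valine. It was made with CRISPR/Cas9 in C57BL/6N zygotes and then crossed to C57BL6/J, the mice received no drug or diet treatment that the labels name, and every cell of the animal carries the allele. A small piece of heart was used for each sample, so the values are an average over all cell types of that piece.

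In background, serine hydroxymethyltransferase takes a carbon from serine and places it on tetrahydrofolate, and SHMT2 does this in mitochondria while SHMT1 does it in the cytosol. Within mitochondria, MTHFD2 or MTHFD2L oxidises the carried carbon and MTHFD1L releases it as formate, which leaves for the cytosol, where the trifunctional MTHFD1 loads it onto folate again for the synthesis of purines, thymidylate and methionine. ALDH1L2 in mitochondria and ALDH1L1 in the cytosol oxidise the carbon of formyltetrahydrofolate to CO2 with the formation of NADPH, and MTHFS returns a storage form of formyltetrahydrofolate to the active pool. MTHFD2 is known as an enzyme of embryonic and proliferating cells that is scarce in most adult tissues, and as a gene induced when mitochondrial function is disturbed.

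Library totals were between 23055689 and 36301031 assigned reads. Taz itself was measured in all 8 libraries, at 58.7 to 63.8 CPM (normalised read count, scaled to the size of each library) in WT and 44.3 to 50.4 in TAZG197V (log2 fold change −0.37, edgeR adjusted p = 0.00124). A change of a single residue need not alter the RNA level, so this value does not test the label. Cardiomyocyte genes summed to 47015 to 51702 CPM in WT and 38391 to 42877 in TAZG197V, and 3 of these 5 genes were called lower. The number 4 libraries of both genotypes stood apart from the rest on the second principal component (25.6% of the variance). In each genotype the number 4 library held the highest summed level of the 9 astrocyte and brain markers. The sums were 95.8 to 101.5 CPM in the other WT libraries and 228.8 in WT 4, and 51.2 to 64.8 CPM in the other TAZG197V libraries and 345.1 in TAZG197V 4. WT 4 also held 55072 CPM of 6 red cell genes against 346 to 1065 in the other WT libraries, and WT 2 held 1094 CPM of 5 atrial genes against 4.24 to 118.1 in the other WT libraries. Markers of some other cell types were also called lower. Of the 4 ventricular markers, Myh7 was called higher with overlapping libraries (log2 fold change 0.91, edgeR adjusted p = 0.0163) and Irx4 lower without overlap. None of the 5 macrophage markers was called. Of the tested genes, 4 of 5 fibroblast markers were called lower, with sums of 835 to 1346 CPM in WT and 571 to 774 in TAZG197V, as were 2 of 5 endothelial markers. Among these called genes Col1a2, Pdgfra, Cdh5 and Kdr overlapped between the genotypes, and so did Tnni3 among the called cardiomyocyte genes. Calls were also made for 6 of 6 red cell, 2 of 3 atrial and 1 of 1 tested adipocyte markers, but every one of these genes overlapped between the genotypes, and the highest WT sum came from a single library, WT 4 for red cell genes and WT 2 for the other lists. The summed adipocyte level was 21.8 CPM in WT 2, against 0.311 to 3.65 in the other WT libraries and 0.182 to 3.81 in TAZG197V. The part of these markers in the enzyme values was not tested. The counts of calls, the log2 fold changes of the 9 enzymes and the isozyme ratios were therefore also computed without both number 4 libraries.

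Of the 9 enzymes, 6 were higher in TAZG197V hearts and none was called lower. Calls needed an adjusted p under 0.05 in edgeR's quasi-likelihood test, a change of more than 15% and a mean scaled count of at least 50. By this rule 5060 of 15084 tested genes were called, which is 33.5% of them, and 2785 genes or 18.5% were called higher. The 6 were Mthfd2, Aldh1l2, Mthfd1l and Shmt2 of the mitochondrial enzymes, and Shmt1 and Mthfd1 of the cytosolic enzymes. The remaining 3 were Mthfd2l, Aldh1l1 and Mthfs. No member had an unadjusted p under 0.05 in the lower direction, and DESeq2 also called 6 higher and 0 lower. All 6 were called in each of 17 alternative fits, and in each of the 6 all TAZG197V libraries lay above all WT libraries, a separation in either direction that 33.2% of tested genes showed. The median log2 fold change was 2.74 over the 5 mitochondrial enzymes, 0.22 over the 4 cytosolic enzymes and −0.01 over all tested genes. Single values ran from −0.07 (Mthfd2l) to 6.46 (Mthfd2) in the mitochondrial set and from −0.13 (Aldh1l1) to 1.99 (Shmt1) in the cytosolic set. In bulk tissue a different number of cells of a type and a different amount of RNA per cell cannot be told apart, and this holds for every value given here.

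**Figure D1:**
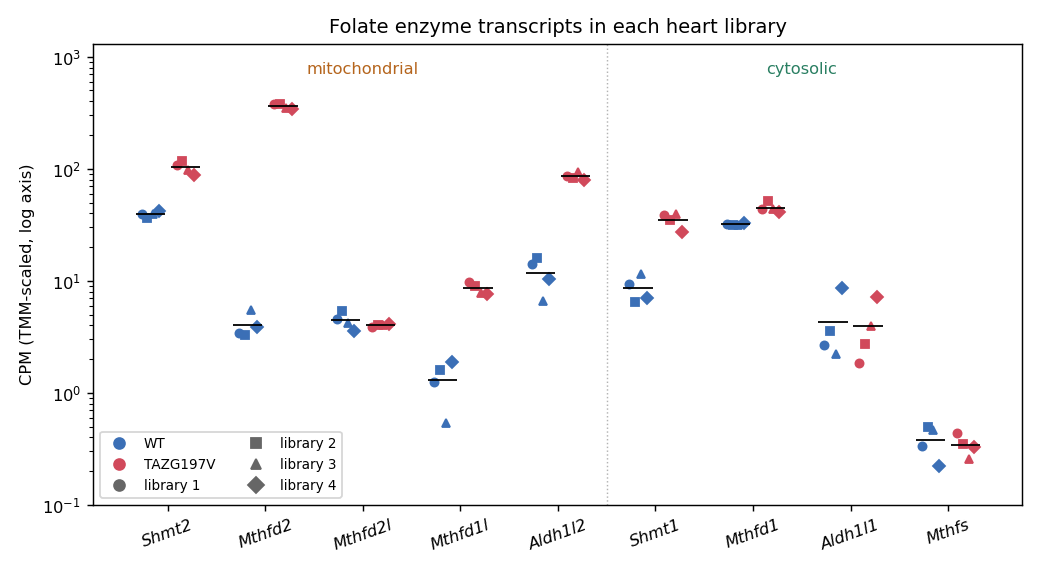
Normalised read counts (CPM, log axis) of the 9 folate one-carbon enzymes in each of the 4 WT and 4 TAZG197V libraries, 1 point per library. Mthfd2 rose from 3.30 to 5.51 CPM in WT to 341 to 381 CPM in TAZG197V, whereas the points of Mthfd2l, Aldh1l1 and Mthfs overlapped between the genotypes.

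The largest change belonged to Mthfd2, the mitochondrial dehydrogenase and cyclohydrolase. Mthfd2 (ENSMUSG00000005667) lies on the minus strand of mm10 at chr6:83305691-83325908. Its raw counts were 101, 120, 142 and 86 in WT 1 to 4 and 10491, 14005, 10739 and 9310 in TAZG197V 1 to 4. On the CPM scale these were 3.42, 3.30, 5.51 and 3.84 in WT and 381, 378, 347 and 341 in TAZG197V. WT 3 was the highest of the WT libraries, and the genotypes were far apart, at 4.02 ± 1.03 CPM in WT against 361.8 ± 20.7 in TAZG197V (SD over 4 libraries). This gave a log2 fold change of 6.46 (SE 0.146, 95% interval 6.12 to 6.79), which is 87.9-fold with an interval from 69.7 to 110.9 (edgeR adjusted p = 1.54e-07). It ranked 12 of 15084 genes from the highest log2 fold change. The libraries had been run on 2 sequencing lanes, with numbers 1 and 2 of each genotype on lane 7 and numbers 3 and 4 on lane 8. The log2 difference of Mthfd2 was 6.82 within lane 7 and 6.22 within lane 8.

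Mthfd2l, the paralogue that catalyses the same steps in mitochondria, was not called. It lies at chr5:90931117-91021368 on the plus strand and had raw counts of 135, 195, 109 and 80 in WT and 107, 149, 126 and 112 in TAZG197V. These were 4.43 ± 0.743 CPM in WT against 4.02 ± 0.0955 in TAZG197V (SD over 4 libraries), and the libraries of the genotypes overlapped. Its log2 fold change was −0.07 with a 95% interval of −0.33 to 0.19 (edgeR adjusted p = 0.641). A rise of Mthfd2l beyond the upper end of this interval, 1.14-fold, was outside what these libraries allow at 95%. The ratio of Mthfd2 to Mthfd2l counts was 0.896 in WT and 89.5 in TAZG197V (geometric means). The log2 ratio of Mthfd2 to Mthfd2l counts (0.5 added to each count) was −0.42, −0.70, 0.38 and 0.10 in WT and 6.61, 6.55, 6.41 and 6.37 in TAZG197V. The difference of the mean log2 ratios was 6.64, and it was 7.14 within lane 7 and 6.15 within lane 8.

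Promoter sequences of both dehydrogenase paralogues and both serine hydroxymethyltransferases are shown because Mthfd2 and Mthfd2l moved by very different amounts, while Shmt2 and Shmt1 both rose. Each runs 5′ to 3′ on the strand of its gene from 250 bases before to 50 bases after the start of the RefSeq gene model (build GRCm38.p6). Capitals mark CCAAT, or ATTGG where the match is on the opposite strand, the letters of the box bound by NF-Y. The windows are chr6:83317555-83317854 (minus strand) for Mthfd2, chr5:90930946-90931245 (plus) for Mthfd2l, chr10:127522395-127522694 (minus) for Shmt2 and chr11:60811216-60811515 (minus) for Shmt1.
Mthfd2: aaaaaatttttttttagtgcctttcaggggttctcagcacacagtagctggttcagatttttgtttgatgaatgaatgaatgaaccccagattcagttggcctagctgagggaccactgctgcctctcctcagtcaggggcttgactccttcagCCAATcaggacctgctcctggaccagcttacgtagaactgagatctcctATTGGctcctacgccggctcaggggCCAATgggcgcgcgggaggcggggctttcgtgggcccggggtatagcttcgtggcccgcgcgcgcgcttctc
Mthfd2l: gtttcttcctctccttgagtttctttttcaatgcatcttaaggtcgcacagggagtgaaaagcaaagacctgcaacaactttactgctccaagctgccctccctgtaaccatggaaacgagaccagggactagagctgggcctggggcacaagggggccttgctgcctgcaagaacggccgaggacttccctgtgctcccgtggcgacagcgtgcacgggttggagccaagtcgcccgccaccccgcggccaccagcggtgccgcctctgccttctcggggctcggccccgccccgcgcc
Shmt2: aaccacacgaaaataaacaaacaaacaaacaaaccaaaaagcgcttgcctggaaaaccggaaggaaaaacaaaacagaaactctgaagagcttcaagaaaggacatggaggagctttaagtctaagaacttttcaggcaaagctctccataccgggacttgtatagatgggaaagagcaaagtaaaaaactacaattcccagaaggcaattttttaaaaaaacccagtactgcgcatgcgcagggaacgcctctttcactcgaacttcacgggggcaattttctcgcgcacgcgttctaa
Shmt1: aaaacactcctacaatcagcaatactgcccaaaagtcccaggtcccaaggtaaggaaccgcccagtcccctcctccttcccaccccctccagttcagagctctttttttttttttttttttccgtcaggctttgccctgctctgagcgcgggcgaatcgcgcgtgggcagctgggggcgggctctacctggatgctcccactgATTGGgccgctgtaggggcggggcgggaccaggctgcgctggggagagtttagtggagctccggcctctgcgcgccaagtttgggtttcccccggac

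The Mthfd2 window held 3 CCAAT matches, with first bases at −96, −47 and −22 from the start, and 3.37% of 32851 mouse promoter windows of the same length held 3 or more. The windows of Mthfd2, Shmt1, Aldh1l1 and Mthfs lie inside the gene spans given here, which start further upstream in the annotation used for the coordinates. RefSeq promoter windows were matched for 8 of the 9 enzymes, all except Aldh1l2. Aldh1l1 held 2 CCAAT matches, a number reached or passed by 11.7% of windows. Mthfd1 and Shmt1 held 1 each, and at least 1 was present in 37.4% of windows. Mthfd2l, Mthfd1l, Shmt2 and Mthfs held no match, so genes that were called higher stood both with and without these letters. TGATGNAA, the letters of the composite element read by CHOP and ATF4, was found in none of the 8 members' windows and in 3.97% of all windows, with both strands searched. The E-box CACGTG was likewise found in no member's window and in 7.15% of all windows. These windows are short, and a missing match says only that the letters are not within them.

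Both serine hydroxymethyltransferases rose. Shmt2 (chr10:127517123-127522444, minus strand), the mitochondrial enzyme, had raw counts of 1176, 1327, 1008 and 949 in WT and 2972, 4361, 3046 and 2400 in TAZG197V. Its normalised level was 39.4 ± 2.42 CPM in WT against 103.0 ± 12.7 in TAZG197V (SD over 4 libraries), with no overlap. This was a log2 fold change of 1.36 (SE 0.08), or 2.56-fold (edgeR adjusted p = 1.39e-05).

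Shmt1 (chr11:60788104-60811718, minus strand), the cytosolic enzyme, had raw counts of 277, 234, 296 and 156 in WT and 1066, 1296, 1220 and 738 in TAZG197V. Per kilobase of exon its level was below that of Shmt2 in every library, and it stood at 8.57 ± 2.33 CPM in WT against 35.0 ± 5.66 in TAZG197V (SD over 4 libraries). On the log2 scale it rose by 1.99 (SE 0.114), or 3.97-fold (edgeR adjusted p = 1.30e-05), and the lowest TAZG197V library lay above the highest WT library. In this pair it was therefore the cytosolic enzyme that rose by the larger factor. The log2 ratio of Shmt2 to Shmt1 counts was 2.08, 2.50, 1.77 and 2.60 in WT and 1.48, 1.75, 1.32 and 1.70 in TAZG197V. All 4 TAZG197V ratios lay below all 4 WT ratios, although TAZG197V 2 and WT 3 differed little. The mean log2 ratio fell by 0.68, to 0.626 of the WT ratio, and the fall was 0.68 within lane 7 and 0.67 within lane 8.

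**Figure D2:**
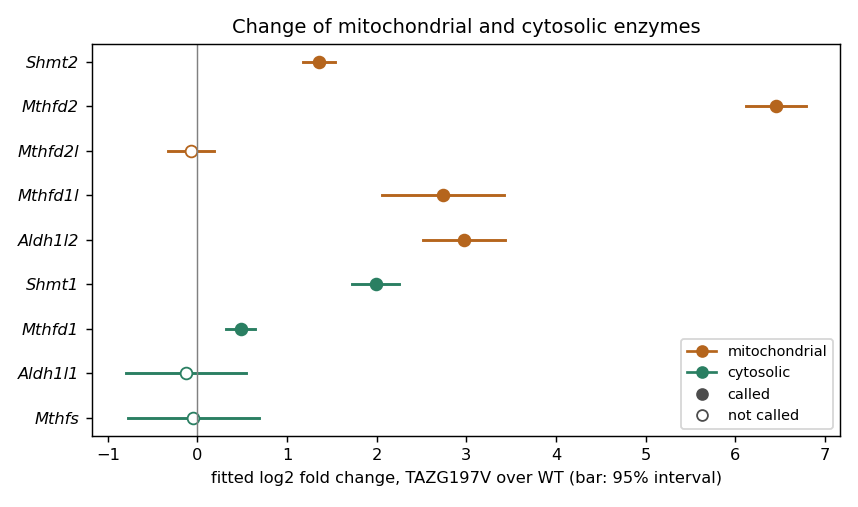
Log2 fold change (TAZG197V minus WT) of each enzyme with its 95% interval from the edgeR fit, coloured by compartment. Mthfd2 stands at 6.46, Aldh1l2 at 2.97 and Mthfd1l at 2.74, while the intervals of Mthfd2l, Aldh1l1 and Mthfs include 0.

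The formate-releasing step and its cytosolic counterpart also rose, by unequal amounts. Mthfd1l (chr10:3973118-4167081, plus strand), the mitochondrial formyltetrahydrofolate synthetase, had the lowest WT level per kilobase of the 6 called genes. Its raw counts were 37, 58, 14 and 42 in WT and 268, 333, 242 and 209 in TAZG197V, so the WT values rest on few reads. Its level was 1.32 ± 0.575 CPM in WT against 8.55 ± 0.988 in TAZG197V (SD over 4 libraries). The log2 fold change was 2.74 (SE 0.296, 95% interval 2.06 to 3.42, edgeR adjusted p = 0.000271).

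Mthfd1 (chr12:76255298-76319803, plus strand), the cytosolic trifunctional enzyme, showed the smallest change of the 6. Its raw counts were 957, 1144, 816 and 731 in WT and 1212, 1903, 1365 and 1116 in TAZG197V. The WT level was tight at 32.03 ± 0.563 CPM, and the TAZG197V level was 45.1 ± 4.43 CPM (SD, n = 4 each), without overlap. It rose by 0.48 on the log2 scale (SE 0.0716, edgeR adjusted p = 0.00127), which is 1.40-fold, so it would not be called with a fold threshold of 1.5. The log2 ratio of Mthfd1l to Mthfd1 was −4.67, −4.29, −5.82 and −4.11 in WT and −2.18, −2.51, −2.49 and −2.41 in TAZG197V, a difference of 2.32. WT 3, with 14 Mthfd1l reads, had the lowest ratio. Within lane 7 the difference was 2.14 and within lane 8 it was 2.51.

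Of the formyltetrahydrofolate dehydrogenases, the mitochondrial gene rose and the cytosolic gene was not called. Aldh1l2 (chr10:83487450-83534140, minus strand) had raw counts of 420, 587, 169 and 234 in WT and 2374, 3073, 2913 and 2150 in TAZG197V. Its level was 11.8 ± 4.23 CPM in WT against 85.5 ± 6.42 in TAZG197V (SD over 4 libraries), so the WT libraries varied but all stayed far below the TAZG197V libraries. The log2 fold change was 2.97 (SE 0.198, edgeR adjusted p = 2.62e-05). In the annotation, 14.1% of the Aldh1l2 exon bases overlap D10Wsu102e on the opposite strand. Strand use in the counting was not stated, so reads in that stretch cannot be assigned with certainty. D10Wsu102e itself had 13.2 CPM in WT and 19.6 in TAZG197V, a smaller change (log2 fold change 0.58) than that of Aldh1l2.

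Aldh1l1 (chr6:90486427-90600203, plus strand), the cytosolic enzyme and a widely used marker of astrocytes, was scarce. It had raw counts of 79, 131, 57 and 195 in WT and 51, 102, 122 and 195 in TAZG197V. The CPM values were 2.67, 3.60, 2.21 and 8.71 in WT and 1.85, 2.75, 3.94 and 7.15 in TAZG197V. The number 4 library was the highest in both genotypes, and the genotypes overlapped. The log2 fold change was −0.13 with a wide 95% interval of −0.80 to 0.55 (edgeR adjusted p = 0.753), and it was 0.027 without both number 4 libraries (edgeR adjusted p = 0.944). On a linear scale this interval runs from 0.574-fold to 1.46-fold. All 9 of 9 astrocyte and brain markers were likewise highest in the number 4 library of each genotype, and of the 7 that could be tested 1 was called higher and 3 lower. The part of these markers in the Aldh1l1 level was not tested. The log2 ratio of Aldh1l2 to Aldh1l1 was 2.40, 2.16, 1.56 and 0.26 in WT and 5.53, 4.91, 4.57 and 3.46 in TAZG197V. It was lowest in the number 4 library of each genotype, and the difference of the means was 3.02, with 2.94 within lane 7 and 3.10 within lane 8.

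**Figure D3:**
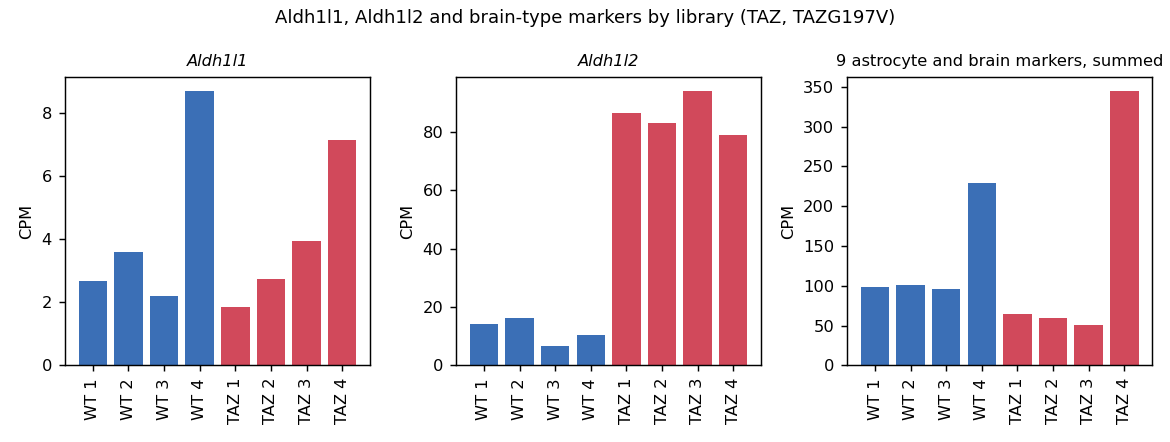
Aldh1l1, Aldh1l2 and the sum of 9 astrocyte and brain markers (CPM) in separate panels, with 1 bar for each of the 8 libraries. The number 4 libraries hold the highest marker sums, at 228.8 and 345.1 CPM, and the highest Aldh1l1 level of their genotype. All TAZG197V bars of Aldh1l2 stand above all its WT bars.

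Mthfs (chr9:89210676-89377713, plus strand), which returns a storage folate to use, was near the limit of detection. It had raw counts of 10, 18, 12 and 5 in WT and 12, 13, 8 and 9 in TAZG197V. Its mean scaled count of 10.6 was under the minimum of 50, so it could not be called, and its adjusted p in edgeR was 0.923. A copy on the same chromosome, Mthfsl, shares sequence with it: 16.4% of all 50-base windows of Mthfs exons recur in other genes, and the promoter windows of the pair share an unbroken run of 282 bases. Reads of the pair cannot be separated with certainty. Mthfsl had 53, 50, 23 and 33 reads in WT and 38, 72, 60 and 41 in TAZG197V, with overlapping genotypes (edgeR adjusted p = 0.404).

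The isozyme ratios were compared as 6 pairs, and in all 6 the ratios of the 4 TAZG197V libraries did not overlap those of the 4 WT libraries. The exact two-sided permutation test over the 70 assignments of libraries gave p = 0.0286 for each, the smallest p that 4 against 4 allows, and the value adjusted over the 6 ratios was also 0.0286. Beside the 4 ratios given above, the mitochondrial Mthfd2 rose against the cytosolic Mthfd1 by 6.03 on the log2 scale, with 6.24 within lane 7 and 5.82 within lane 8. Mthfd2l in contrast fell against Mthfd1 by 0.61, with a fall of 0.90 within lane 7 and 0.33 within lane 8. The mitochondrial partner thus gained on its cytosolic counterpart for Mthfd2, Mthfd1l and Aldh1l2, and lost for Shmt2 and Mthfd2l. The pairs share genes, so these 6 tests are not independent of each other.

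**Figure D4:**
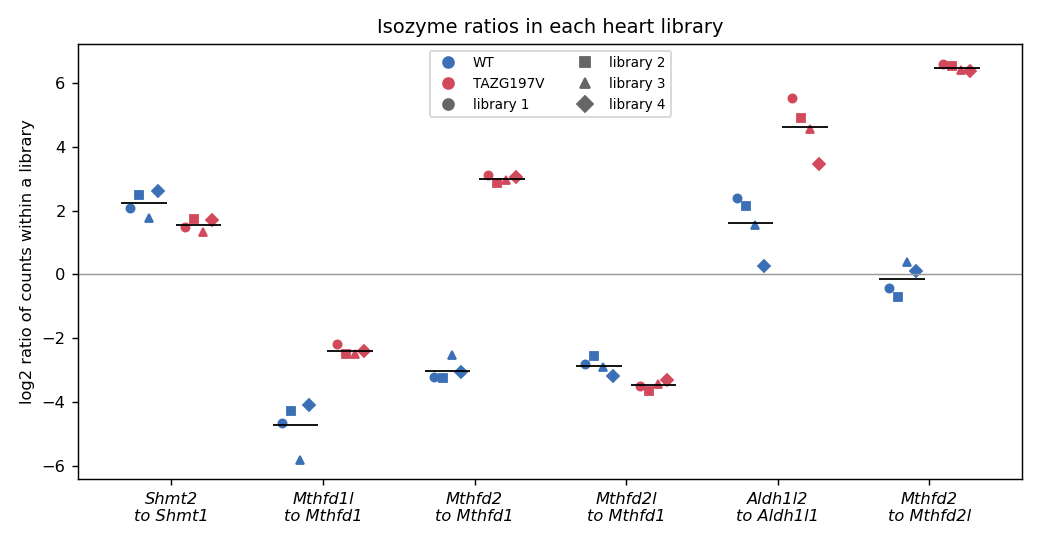
Log2 ratio of read counts for 6 isozyme pairs in each WT and TAZG197V heart library, 1 point per library with the group mean. The TAZG197V points lie above the WT points for Mthfd2 to Mthfd1, Mthfd2 to Mthfd2l, Mthfd1l to Mthfd1 and Aldh1l2 to Aldh1l1, and below them for Shmt2 to Shmt1 and Mthfd2l to Mthfd1.

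To compare levels between enzymes, CPM was divided by the length of the merged exons of each gene in kilobases. In WT hearts Shmt2 was the most abundant of the enzymes at 12.7 ± 0.780 CPM per kilobase, followed by Mthfd1 at 7.21 ± 0.127 (SD, n = 4 each). Shmt1 at 2.21, Aldh1l2 at 1.58, Mthfd2 at 1.152, Aldh1l1 at 0.952 and Mthfd2l at 0.667 CPM per kilobase came next. Each of these 5 overlapped its neighbour in the order over the WT libraries. Mthfd1l at 0.297 and Mthfs at 0.0498 CPM per kilobase were the lowest, without overlap with each other or with Mthfd2l.

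In TAZG197V hearts the order changed, and Mthfd2 went from the fifth place to the first, at 103.8 ± 5.93 CPM per kilobase (SD, n = 4). Shmt2 followed at 33.1 ± 4.10 CPM per kilobase. Aldh1l2 at 11.4, Mthfd1 at 10.2 and Shmt1 at 9.02 CPM per kilobase followed, and each overlapped the next. Mthfd1l stood at 1.93 CPM per kilobase, above Aldh1l1 at 0.869 and Mthfd2l at 0.605, which overlapped, and Mthfs was again the lowest at 0.0450.

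The summed level of the 9 enzymes was 26.8 ± 1.08 CPM per kilobase in WT against 170.9 ± 11.2 in TAZG197V (SD over 4 libraries), a 6.38-fold ratio of means. The mitochondrial sum went from 16.4 to 150.8 CPM per kilobase (9.21-fold) and the cytosolic sum from 10.4 to 20.1 (1.93-fold). The mitochondrial enzymes held 61.1 ± 1.20% of the summed level in WT and 88.2 ± 0.562% in TAZG197V. Mthfd2 alone held 4.30% in WT and 60.7% in TAZG197V. With Mthfd2 left out, the mitochondrial share was 59.4% in WT and 70.1% in TAZG197V, and the libraries of the genotypes still did not overlap. Within the pairs, Mthfd2 held 62.8% of the Mthfd2 and Mthfd2l level in WT and 99.4% in TAZG197V, Aldh1l2 held 63.8% and 92.9% of its pair, and Mthfd1l held 3.92% and 16.0% of its pair with Mthfd1. The share of Shmt2 in its pair moved the other way, from 85.3 ± 3.42% to 78.6 ± 2.35%. These shares of RNA are not shares of enzyme or of flux, neither of which was measured here.

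**Figure D5:**
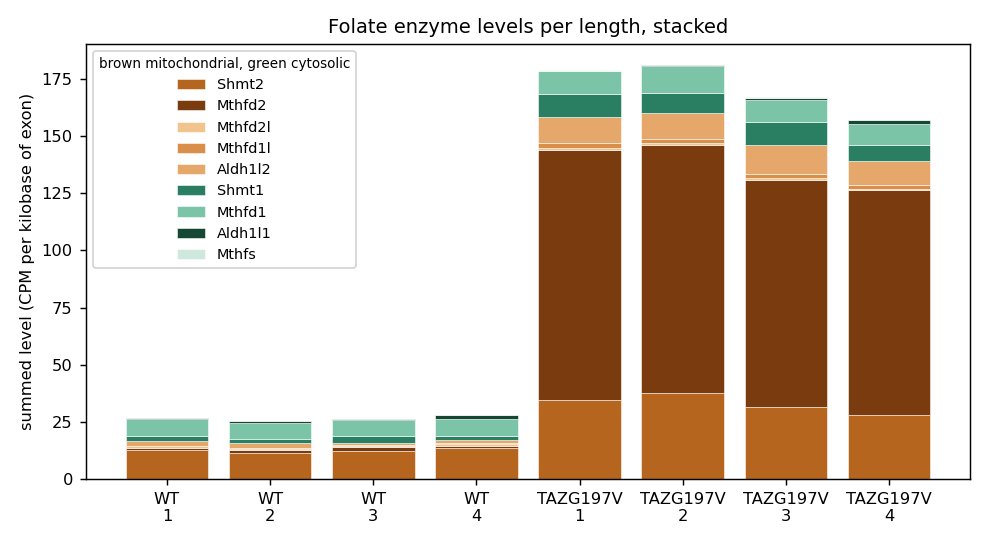
Level (CPM per kilobase of merged exon, linear axis) of the 9 enzymes in each WT and TAZG197V heart library, stacked in 1 bar per library. The mean of Mthfd2 goes from 1.152 to 103.8 CPM per kilobase, while that of Shmt2, the most abundant in WT, goes from 12.7 to 33.1.

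Beyond the 9 enzymes, 26 other genes of folate metabolism were listed by role, and 23 of them could be tested. Of these, 7 were called higher, 2 lower and 14 were not called, with a median log2 fold change of 0.05. Over all 15084 tested genes 18.5% were called higher, 2275 genes were called lower, and 33.5% were called in either direction. DESeq2 called 6 genes of the list higher and 2 lower. Of the 9 genes of cytosolic folate use and recycling, 8 were tested, 3 were called higher and 1 lower. The largest rise of the list was that of Atic, which completes purine synthesis with a formyl group from folate, at 31.04 ± 0.510 CPM in WT and 59.4 ± 6.69 in TAZG197V (log2 fold change 0.94, edgeR adjusted p = 0.0001). Gart, which uses the other formyl group of the purine ring, rose by 0.35 on the log2 scale (edgeR adjusted p = 0.00117). Mtr, methionine synthase, fell, with 191 ± 17.8 CPM in WT hearts against 140.0 ± 16.9 in TAZG197V hearts and a log2 fold change of −0.46 (edgeR adjusted p = 0.0103), whereas Mtrr, its reductase, had a log2 fold change of 0.24 with overlapping libraries (edgeR adjusted p = 0.0361) and was called in 10 of the 17 alternative fits. Tyms, thymidylate synthase, had an edgeR adjusted p of 0.992 and, with a mean scaled count of 46.4, could not have been called.

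Among the 6 genes of uptake and polyglutamation, of which 5 were tested, 2 rose. Slc19a1, the reduced folate carrier, had a log2 fold change of 0.57 (edgeR adjusted p = 0.00749), and Ggh, which trims the glutamate tail of folates, had 0.58 (edgeR adjusted p = 0.00154). Amt, the aminomethyltransferase, was the only called gene of the 4 glycine cleavage genes, with a log2 fold change of 0.51 (edgeR adjusted p = 0.00836). Of the 7 genes of mitochondrial folate and serine transport and use, 6 were tested. Slc25a32, the mitochondrial folate carrier, had 21.2 ± 1.04 CPM in WT and 21.1 ± 1.36 in TAZG197V (edgeR adjusted p = 0.983). Sfxn1, a mitochondrial serine carrier, was called higher (log2 fold change 0.36, edgeR adjusted p = 0.0345) and Sfxn2, a related gene, lower (log2 fold change −0.66, edgeR adjusted p = 0.0187). Both had overlapping libraries, and they were called in 13 and 12 of the 17 alternative fits.

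The 3 enzymes of serine synthesis, which supply the substrate of Shmt1 and Shmt2, were all called higher. Phgdh, which catalyses the first step, had 0.560 ± 0.343 CPM in WT hearts against 35.96 ± 4.80 in TAZG197V hearts, a log2 fold change of 5.96 (edgeR adjusted p = 2.82e-06) that was 6.56 without both number 4 libraries. The log2 fold changes of Psat1 and Psph, the following enzymes, were 4.54 and 1.56. Over the 8 libraries, the genes whose log2 levels followed Mthfd2 most closely were Arhgef2, Gars, Ostn, Adm2 and Asns, with Pearson's r from 0.9989 to 0.99933. These values are a description, since a large difference between the genotypes sets most of each r. Markers of proliferating cells, in which folate enzymes are high, summed to 11.7 to 16.1 CPM in WT and 11.4 to 14.5 in TAZG197V. None of the 4 tested was called by edgeR or by DESeq2, and 1 had an unadjusted p under 0.05, in the lower direction. Cdk1 and Birc5, with at most 1.52 and 1.03 CPM in any library, were too scarce to be called. They lay below the mean level of Tyms (1.62 CPM in WT and 1.55 in TAZG197V), which missed the minimum mean scaled count. The log2 fold changes of the other tested markers were −0.34 for Mki67 and −0.03 for Top2a (edgeR adjusted p = 0.0979 and 0.879).

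Without both number 4 libraries the log2 fold changes of the 6 called enzymes were 6.55 for Mthfd2, 1.49 for Shmt2, 2.11 for Shmt1, 3.03 for Mthfd1l, 0.55 for Mthfd1 and 2.88 for Aldh1l2, and all 6 were again called. The differences within lane 7 and within lane 8 were 1.57 and 1.19 for Shmt2, 2.25 and 1.87 for Shmt1, 2.73 and 2.94 for Mthfd1l, 0.58 and 0.40 for Mthfd1 and 2.48 and 3.38 for Aldh1l2.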

How the data were processed

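RNA from hearts of WT and TAZG197V mice was sequenced as 50-base single reads, with 4 libraries for each genotype. Per the labels and methods, the authors used bcl2fastq 2.20.0, FastQC 0.11.9, STAR 2.7.3a with mm10 and featureCounts (Subread 2.0.0), and the deposited values are raw counts of reads per gene over exons. The annotation release and the strand and multimapping settings are not given in the sources used here. The age of the mice is taken from the study.

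Gene symbols, positions and exon lengths came from GENCODE annotation of GRCm38, which is mm10, matched by identifier for 55230 of 55471 genes. The 92 spike-in rows summed to 0 reads and were left out. Genes passing filterByExpr were scaled by TMM and fitted by genotype with 2 surrogate variables (sva 3.50.0, genotype protected) in edgeR 4.0.16 (R 4.3.3). The quasi-likelihood test was adjusted by the Benjamini-Hochberg method over 15084 genes. The scripts were tested on simulated data. Isozyme ratios were compared by an exact permutation test over libraries, and intervals cover the spread between libraries. The labels number the libraries without naming the animals, so p-values measure only the spread between these samples, which may be technical in part. No 2 libraries agreed within sampling noise (the smallest chi-square per gene was 10.2).

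The members and lists were chosen with earlier results of these data known. All members were named, as was every called gene of the folate list, with Tyms and Slc25a32 singled out after their values were seen. Serine synthesis genes and the 5 genes most like Mthfd2 by Pearson's r of log2(CPM + 0.5) were also named. The CCAAT motif was chosen after the promoter sequences were read. Alternatives were other numbers of surrogate variables, lane as a covariate, a replicate block, DESeq2 1.42.0, its size factors, no low-count filter, mitochondrially encoded genes left out, other fold and pseudocount settings, and each library left out.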

Additional observations from a re-analysis of the deposited data

How the results depend on the processing

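In all 17 alternative fits, at unchanged thresholds, Mthfd2, Mthfd1l, Mthfd1, Shmt2, Shmt1 and Aldh1l2 were called higher, and Mthfd2l, Aldh1l1 and Mthfs were not called in any fit that tested them. Over these fits the log2 fold change ranged from 6.32 to 6.66 for Mthfd2, from 2.42 to 3.03 for Mthfd1l and from 0.42 to 0.55 for Mthfd1. With a replicate block in place of the surrogate variables, 4272 genes were called instead of 5060, and 6 members were again called higher and 0 lower. Without surrogate variables or a block, 4192 genes were called. Deviations from the group means correlated at 0.0666 to 0.418 between libraries of the same number and at −0.46 to 0.336 between libraries of different numbers. The same-number library gave the highest correlation for WT 1, WT 2 and WT 4 but not for WT 3. Whether the numbers pair the samples was not settled by these values, and the main fit did not pair them. With a fold threshold of 1.5, 1843 genes were called, 5 members among them, all higher, and Mthfd1 at 1.40-fold lost its call. The ratio of Mthfd2l to Mthfd1 differed by −0.90 within lane 7 and −0.33 within lane 8, and that of Mthfd2 to Mthfd2l by 7.14 and 6.15, and the cause was not tested. Neither direction of Aldh1l1 nor of Mthfs was stable. The log2 fold change of Aldh1l1 was 0.25 without WT 4, 0.11 without TAZG197V 1 and 0.027 without both number 4 libraries, with a range of −0.28 to 0.25 over the fits that each left out 1 library. That of Mthfs was 0.12 without WT 3, 0.0035 without TAZG197V 2 and 0.09 without TAZG197V 3, within a range of −0.34 to 0.12, and Mthfs was not tested without WT 2, where it missed the count filter. With the length of the longest transcript in place of merged exons, levels per kilobase were higher in WT and TAZG197V, at 1.93 and 173.5 for Mthfd2, 1.07 and 0.969 for Mthfd2l and 0.0958 and 0.0866 for Mthfs, and Aldh1l1 and Mthfd2l exchanged places in both genotypes. The sums and shares rest on merged exons alone. Depth limits Mthfs, with 5 to 18 reads a library, and Mthfd1l in WT, with 14 to 58.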
